A study of Mus musculus with 27 samples.

Results

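Primary, or azurophil, granules are the first granules that form as a neutrophil develops, and their proteins are transcribed mainly at the progenitor and promyelocyte stages. Granulocyte-monocyte progenitors (GMPs) already hold large amounts of the messages for myeloperoxidase and for the neutrophil serine proteases, and these messages decline as the cells mature and turn to later granules. Myeloperoxidase is folded and loaded with heme in the endoplasmic reticulum (ER), with the help of the chaperones calreticulin and calnexin, before it is sorted to the granule.

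The genes described here were chosen by name from 8 candidates, and 7 of them were among the 5486 genes in the table of counts per 1 M reads (CPM). Mpo encodes myeloperoxidase, the heme peroxidase that makes hypochlorous acid. Elane encodes neutrophil elastase and Prtn3 encodes proteinase 3, a pair of related serine proteases. Ms4a3 encodes a membrane-spanning protein of myeloid progenitors, Calr encodes calreticulin, Nkg7 encodes a granule membrane protein best known from cytotoxic lymphocytes, and Hp encodes haptoglobin, a hemoglobin-binding protein. Of these products, myeloperoxidase, elastase and proteinase 3 are primary granule proteins proper. Ctsg was not analysed here.

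AML cells were GMPs transformed with the MLL-AF9 oncogene by retrovirus and transplanted into secondary recipients that received no conditioning, and they were sorted as GFP+, mTomato+ and DAPI-negative cells. They came from 3 primary donors, the batches 1 and 3 from bone marrow (BM) and batch 19 from spleen. Each batch gave 3 libraries of endosteal cells, released by crushing the metaphysis, and 3 of central cells, flushed from the diaphysis, so that region and handling cannot be told apart. Each batch is the leukemia of 1 donor, and source tissue, donor and batch cannot be told apart. The 9 control libraries were GMPs sorted from whole BM of healthy wild-type mice matched for age and sex, in 3 sets named A, B and C here. The GMPs came from 9 mice. Each batch stands for 3 biological replicates, so its endosteal and central libraries may come from the same 3 mice, and the labels do not say which libraries share a mouse. Tests against GMPs or between batches that count the 6 libraries of a batch as independent then give p-values that are too small. Tests over the mean of the AML groups use the spread of libraries within groups, and their p-values speak of these 3 leukemias only. Values from either region alone, 3 libraries a batch, are given for Mpo, Ms4a3 and other calls that depend on it. Tests between regions leave out such pairing, and their p-values may then be too large. Libraries are numbered 1 to 27 by their place in the table.

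Library depth could be read in 24 libraries and lay between 5.60 and 13.4 M reads (median 9.05 M). The noncoding RNA Gm42418, which lies in a ribosomal RNA repeat, had a median of 31293 CPM in GMPs and 5689 CPM in AML cells, with 64441 CPM in endosteal library 3 of batch 3 and 26917 CPM in endosteal library 18 of batch 1. Among GMPs, library 25 of set C had the highest Mpo, Nkg7 and Hp and the lowest Prtn3 and Calr. Library 18 likewise had the highest Mpo, Ms4a3 and Hp and the lowest Prtn3 of batch 1. Results that rest on these libraries are given with and without them. GMP libraries held 346 ± 96.0 CPM of Cd34 and 25.3 ± 11.0 CPM of Kit (SD, n = 9), both used to define GMPs. Over the mean of the AML groups, where 18.2% of all genes tested rose and 12.4% fell by the rule given with the counts of changed genes, 1 of 10 genes of the progenitor surface rose and 3 fell. Of markers of other cells, 2 of 3 erythroid genes fell, 1 of 3 megakaryocyte genes rose and 2 fell, and 1 of 4 stromal genes rose and 1 fell. None of 3 B lineage genes changed over that mean, but 2 rose in batch 19, where 23.8% of all genes rose. The B lineage genes are given beside Ms4a3.

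The upstream sequences of 4 genes are shown because Mpo, Elane and Prtn3 were lowest in AML batch 1, Elane and Prtn3 being neighbors, whereas Ms4a3 was lowest in AML batch 19. RefSeq gave a start for 6 of the 7 genes on GRCm38.p6, and each line holds the 250 bases before it, 5′ to 3′ on the strand of the gene. Capitals mark AGGAAGT, a match to the core bound by PU.1, a myeloid transcription factor. The motifs were chosen after these sequences had been read.
Mpo, chr11:87793534-87793783, plus strand: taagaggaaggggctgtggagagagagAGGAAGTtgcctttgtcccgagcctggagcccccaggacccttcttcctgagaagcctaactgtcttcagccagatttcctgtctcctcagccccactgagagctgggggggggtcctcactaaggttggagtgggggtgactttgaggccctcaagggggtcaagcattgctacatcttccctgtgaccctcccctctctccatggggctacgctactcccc
Elane, chr10:79886062-79886311, plus strand: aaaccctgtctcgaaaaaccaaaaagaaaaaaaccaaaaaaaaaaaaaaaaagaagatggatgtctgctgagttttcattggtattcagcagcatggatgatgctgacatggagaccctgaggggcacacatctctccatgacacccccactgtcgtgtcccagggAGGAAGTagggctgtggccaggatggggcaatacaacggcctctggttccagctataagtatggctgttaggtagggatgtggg
Prtn3, chr10:79879417-79879666, plus strand: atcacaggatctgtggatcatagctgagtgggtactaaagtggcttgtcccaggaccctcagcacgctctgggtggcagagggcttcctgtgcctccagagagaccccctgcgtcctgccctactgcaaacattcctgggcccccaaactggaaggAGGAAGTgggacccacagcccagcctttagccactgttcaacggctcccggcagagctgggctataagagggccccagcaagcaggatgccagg
Ms4a3, chr19:11640852-11641101, minus strand: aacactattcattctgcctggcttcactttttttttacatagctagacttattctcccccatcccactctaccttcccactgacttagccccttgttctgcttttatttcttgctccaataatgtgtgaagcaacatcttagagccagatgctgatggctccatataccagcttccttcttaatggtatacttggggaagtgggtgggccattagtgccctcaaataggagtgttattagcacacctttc

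AGGAAGT on either strand occurred in the windows of Mpo, Elane and Prtn3, 223, 84 and 94 bases before the start, and in 7.69% of the 32851 RefSeq promoter windows of this length. It did not occur in the windows of Ms4a3, Calr or Nkg7. Near matches were not counted, such as GGGAAGT in the window of Ms4a3 and AGGAAGG in that of Nkg7. The MYB core AACNG was in 5 of the 6 windows, all but that of Ms4a3, and in 74.2% of all windows. The C/EBP pattern TTNNGNAA was in the window of Ms4a3 alone of the 6 and in 36.8% of all windows, and the RUNX core TGTGGT in that of Nkg7 alone and in 14% of all. All motifs were searched on both strands, and no match of 1 motif overlapped a match of another. These matches describe letters in short windows and nothing about binding.

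The windows of Mpo, Elane and Prtn3 reach into the spans that Gencode gives these genes, which include earlier starts. Mpo lies on chr11:87793581-87804413 (plus strand, 14 exons) in the Gencode M21 annotation of GRCm38, with the antisense gene Gm11505 overlapping it. Prtn3 (chr10:79874476-79883174) and Elane (chr10:79886247-79888215) lie on the plus strand 3072 bp apart, and Plppr3 overlaps Prtn3 on the other strand. Ms4a3 is on the minus strand of chr19:11629496-11640851, Calr on that of chr8:84841850-84846934 and Hp on that of chr8:109575128-109579172, whereas Nkg7 is on the plus strand of chr7:43437073-43438249. The strand setting used in counting is not given in the sources used here, so reads of Mpo and Prtn3 cannot be separated from those of their overlapping partners.

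Mpo was the most abundant of these messages in GMPs and was lower in all 3 leukemias. The GMP libraries held 14344, 14752 and 9311 CPM in set B, 24674, 16178 and 9021 CPM in set C, and 9127, 8832 and 10823 CPM in set A. Batch 19 held 2602, 2663 and 3241 CPM in endosteal and 3268, 2704 and 3451 CPM in central libraries. Every batch 19 library was below every GMP library. Batch 3 held 2191, 2960 and 2013 CPM in endosteal and 1678, 2631 and 1863 CPM in central libraries. Batch 1 held 484, 668 and 203 CPM in endosteal and 500, 293 and 233 CPM in central libraries, all below the lowest batch 3 library, whereas batches 3 and 19 overlapped each other.

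On the CPM scale the mean of batch 1 was 3.05% of the GMP mean, that of batch 3 was 17.1% and that of batch 19 was 23%. The log2 fold change against GMPs, on the scale of CPM + 1, was -5.08 in batch 1 (standard error 0.26, adjusted p = 4.78e-15 from limma), -2.49 in batch 3 (standard error 0.26, adjusted p = 4.65e-09) and -2.04 in batch 19 (standard error 0.26, adjusted p = 1.20e-07). In endosteal libraries alone the changes were -4.92, -2.38 and -2.12 (adjusted p of at most 6.49e-05 from limma), and in central libraries alone -5.23, -2.60 and -1.97 (adjusted p of at most 1.34e-05). With quantile scaling they were -4.38, -1.65 and -1.56, still called but over 1.5 times closer to GMPs in batches 1 and 3. Without GMP library 25 the mean change over all AML groups was -3.08 in place of -3.20.

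**Figure D1:**
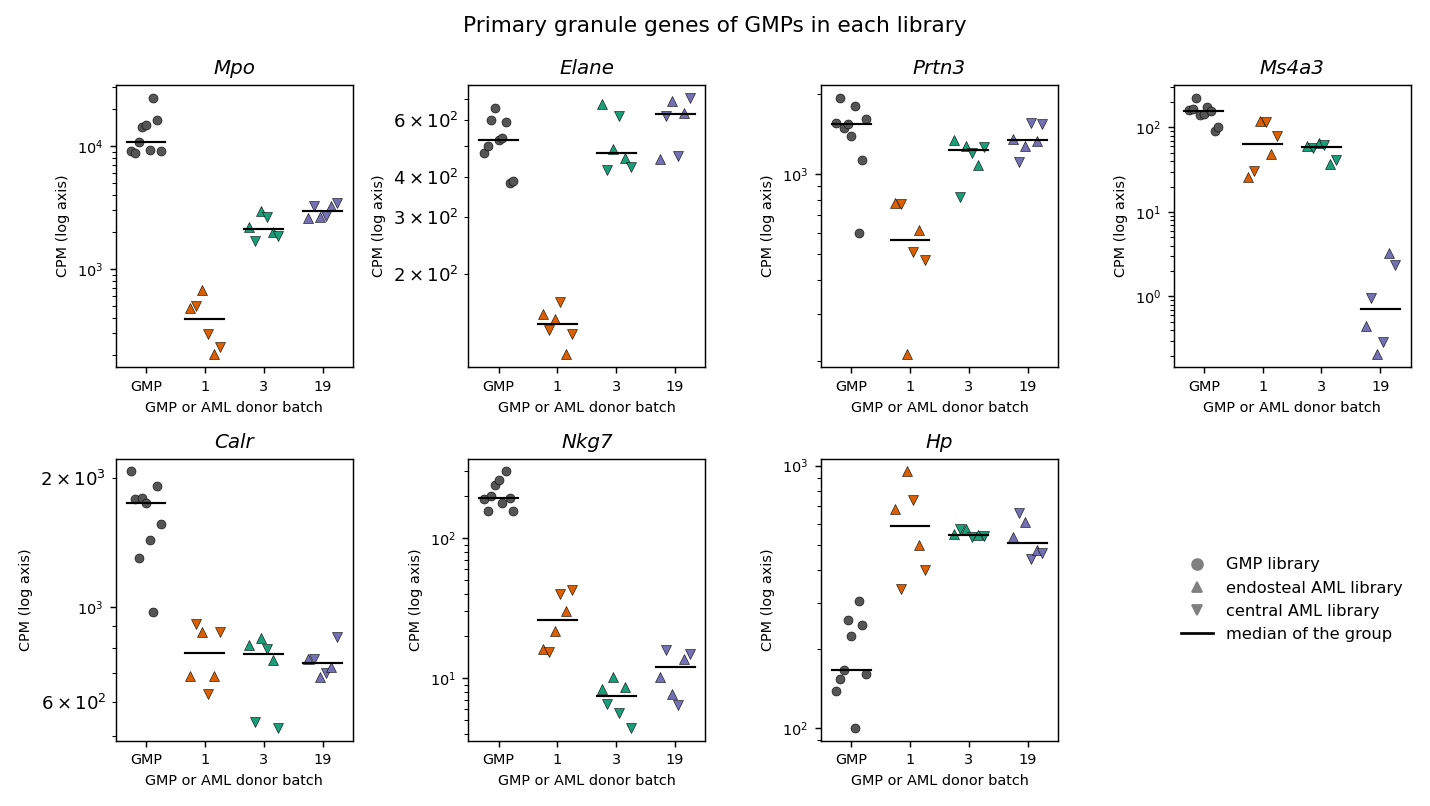
CPM of the 7 genes (log axis) in 9 GMP libraries (circles) and 6 libraries of each AML batch (upward triangles endosteal, downward triangles central), with the median of each group as a line. Mpo fell in all 3 batches and furthest in batch 1, where its median was 389 CPM. Elane and Prtn3 were low in batch 1, and Ms4a3 was near 0 in batch 19.

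Elane, in contrast, overlapped the GMP range in batches 3 and 19 and fell in batch 1. GMPs held 384 to 653 CPM (median 521), and the libraries of batch 3 held 674, 489 and 458 CPM in endosteal and 420, 617 and 430 CPM in central cells. Batch 19 held 456, 689 and 632 CPM in endosteal and 619, 465 and 705 CPM in central cells, so that both batches overlapped the GMP range. Batch 1 held 150, 145 and 113 CPM in endosteal and 134, 164 and 130 CPM in central cells, below every other library of the series. Against GMPs the log2 fold change was -1.87 in batch 1 (standard error 0.15, adjusted p = 8.14e-11 from limma), -0.01 in batch 3 (95% interval -0.32 to 0.31) and 0.20 in batch 19 (95% interval -0.11 to 0.52). Batch 1 also differed from batch 3 (-1.86, adjusted p = 1.16e-07 from limma) and from batch 19 (-2.07, adjusted p = 5.96e-09).

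Prtn3, which sits next to Elane, showed the same order of AML batches by mean CPM, but its mean was highest in GMPs. Relative to the mean, Prtn3 spread more than Elane in GMPs and batch 1 and less in batches 3 and 19. GMPs held 603 to 1932 CPM (median 1541), with library 25 at 603 CPM and the next GMP library at 1128 CPM. Batch 3 held 1338, 1269 and 1079 CPM in endosteal and 818, 1202 and 1258 CPM in central libraries, and batch 19 held 1350, 1270 and 1325 CPM and 1111, 1554 and 1542 CPM. Batch 1 held 781, 212 and 618 CPM in endosteal and 770, 509 and 477 CPM in central libraries. All 6 batch 1 libraries were below the other AML libraries, and 3 of them were above GMP library 25.

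The log2 fold change of Prtn3 against GMPs was -1.42 in batch 1 (standard error 0.25, adjusted p = 2.19e-05 from limma), -0.27 in batch 3 (95% interval -0.78 to 0.23) and -0.04 in batch 19 (95% interval -0.55 to 0.47). Without library 18 the change in batch 1 was -1.13 and remained past the threshold. Batch 1 was lower than batch 19 by -1.38 (adjusted p = 0.000189 from limma) and than batch 3 by -1.15 (adjusted p = 0.00163). The latter was -0.88 without library 18 and -0.91 in central libraries alone, both short of a log2 change of 1, and -1.39 in endosteal libraries alone, where its adjusted p from limma was 0.0728.

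Ms4a3 followed another order and was almost lost from batch 19. GMPs held 141, 145 and 176 CPM in set B, 158, 90.7 and 100.1 CPM in set C, and 160, 163 and 225 CPM in set A. Batch 19 held 0.443, 0.208 and 3.24 CPM in endosteal and 0.965, 0.288 and 2.35 CPM in central libraries. These values rest on 4, 2, 30, 9, 2 and 20 reads, 67 reads of 52.7 M in all, a pooled level of 1.27 CPM with an exact 95% Poisson interval of 0.985 to 1.61 that covers counting error only. Libraries 14 and 15 held 50 of the 67 reads. Batch 3 held 60.8, 66.3 and 36.5 CPM in endosteal and 57.1, 61.6 and 41.4 CPM in central libraries, all below the lowest GMP library. Batch 1 held 26.1, 121 and 48.8 CPM and 30.6, 116 and 78.7 CPM, so that 2 of its libraries overlapped the GMP range.

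Relative to GMPs, Ms4a3 averaged 46.4% in batch 1, 35.7% in batch 3 and 0.827% in batch 19 on the CPM scale. The log2 fold changes were -1.29 (standard error 0.32, adjusted p = 0.00119 from limma), -1.45 (standard error 0.32, adjusted p = 0.000274) and -6.21 (standard error 0.32, adjusted p = 5.21e-15). Batch 19 was below batch 1 by a log2 change of 4.92 (adjusted p = 4.25e-09 from limma) and below batch 3 by 4.75 (adjusted p = 1.70e-08). Batches 1 and 3 differed by 0.17 (95% interval -0.63 to 0.96), within the spread of batch 1. In either region alone Ms4a3 kept these calls, at 4.81 and 5.03 against batch 1 and at 4.79 and 4.72 against batch 3 (adjusted p of at most 0.000749 from limma). The change of batch 19 against GMPs was -5.18 with a pseudocount of 3 and -7.06 with edgeR on whole reads. Of 9 B lineage markers 3 were in the table, and Vpreb1 and Igll1, which encode the surrogate light chain of B cell precursors, rose in batch 19 (2.03 and 1.22), where their sum with Cd79b was 19.6 to 26.6 CPM against 13.2 to 18.9 CPM in GMPs, 11.9 to 23.9 CPM in batch 1 and 13.4 to 18.4 CPM in batch 3. Batch 1 and batch 3 were below batch 19 in Vpreb1 by -2.45 and -2.26 (adjusted p of at most 8.86e-08 from limma). In Igll1 they were below it by -1.50 and -1.28 (adjusted p of at most 8.00e-06 from limma). Cd79b went the other way, with batch 1 above batch 19 by 1.08 (adjusted p = 7.19e-05 from limma). Batch 3 exceeded batch 19 in Cd79b by 0.94 (adjusted p = 0.000534 from limma), short of 1. The part of these markers in the Ms4a3 levels was not tested.

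The ratio of Mpo to Ms4a3 within a library does not depend on how libraries are scaled to each other. It had a median of 90.1 in GMPs (48.1 to 178), 43.7 in batch 3 (29.4 to 55.1), 4.85 in batch 1 (2.54 to 18.5) and 4630 in batch 19 (1000 to 12802). In batch 19 it divides by Ms4a3 values that rest on 2 to 30 reads, and the highest ratio rests on 2, so its size there is uncertain. Batch 1 and batch 19 overlapped no other group, whereas GMPs and batch 3 overlapped each other. The ratio was formed after the opposite order of the 2 genes had been seen and is given as a description, with no test.

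**Figure D2:**
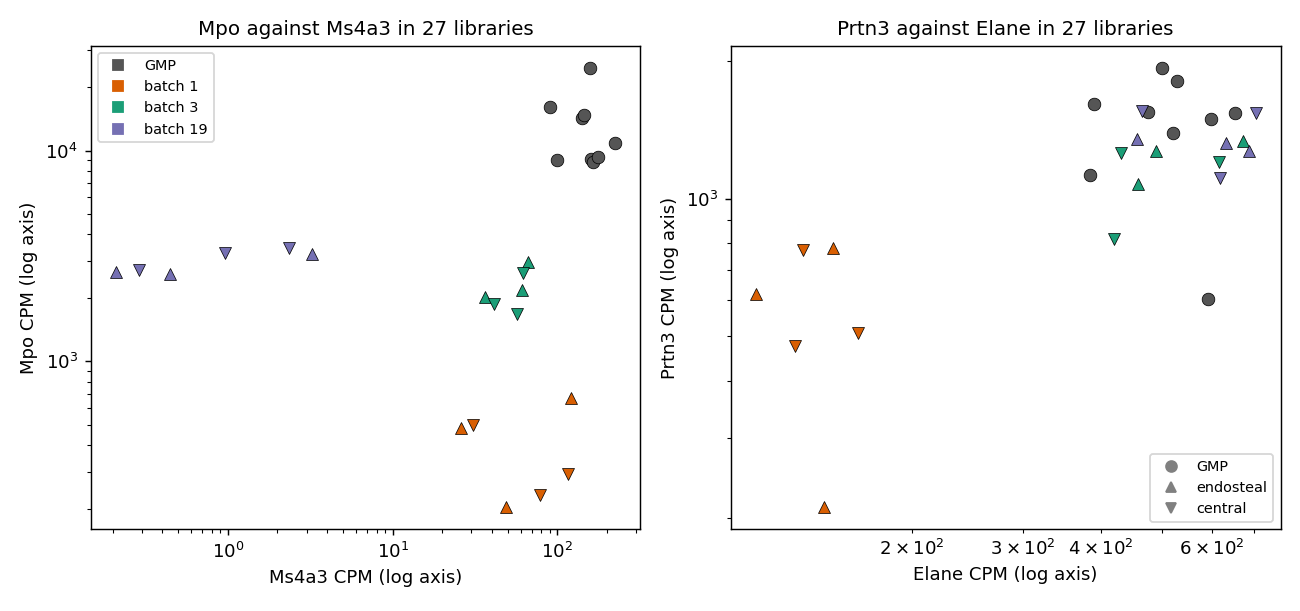
CPM of Mpo against Ms4a3 (left) and of Prtn3 against Elane (right) in 27 libraries, both axes logarithmic, with colors for GMPs and AML batches and symbols for region. Batch 1 lies at low Mpo with Ms4a3 between 26.1 and 121 CPM, batch 19 at low Ms4a3 with Mpo between 2602 and 3451 CPM. In the right panel batch 1 lies apart at low Elane, and GMP library 25 and library 18 lie below their groups in Prtn3.

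The ratio of Mpo to Elane was 17.6 to 42.1 in GMPs and 1.79 to 6.05 over the 18 AML libraries with no overlap, Mpo being lower relative to Elane in every AML library. Prtn3 to Elane, by comparison, ranged from 1.02 to 4.13 in GMPs and from 1.46 to 5.73 in AML libraries. The lowest of these ratios in GMPs belonged to library 25, and the lowest in AML cells to library 18.

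Calr, the ER chaperone that binds the precursor of myeloperoxidase, was lower than in GMPs in each batch of AML cells. GMPs held 972 to 2067 CPM (median 1749), and the AML libraries held 628 to 911 CPM in batch 1, 522 to 847 CPM in batch 3 and 685 to 850 CPM in batch 19. No AML library reached the lowest GMP library, which was library 25. The log2 fold change against GMPs was -1.04 in batch 1 (standard error 0.16, adjusted p = 3.62e-06 from limma), -1.18 in batch 3 (adjusted p = 4.32e-07) and -1.09 in batch 19 (adjusted p = 1.27e-06). The value of batch 1 was -0.92 with quantile scaling, -0.994 without control set A, -0.996 in central libraries alone and -0.96 without central library 19. That of batch 3 was -0.98 in endosteal libraries alone. All of these were short of the required change of 1, as was batch 1 without GMP library 7. Between batches Calr differed by 0.14 or less in size on the log2 scale, with 95% intervals between -0.43 and 0.48.

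Nkg7 was also below GMPs in each AML library. GMPs held 240, 258 and 177 CPM in set B, 299, 192 and 157 CPM in set C, and 190, 156 and 200 CPM in set A. Batch 3 held 4.43 to 10.2 CPM (median 7.45), batch 19 held 6.48 to 16 CPM (median 12.0) and batch 1 held 15.3 to 42.7 CPM (median 25.8). Thus the batch with the least Mpo kept the most Nkg7. Against GMPs the log2 fold change was -2.94 in batch 1, -4.66 in batch 3 and -4.09 in batch 19 (standard error 0.22 and adjusted p of at most 1.05e-11 from limma in each). Batch 1 exceeded batch 3 by 1.72 (adjusted p = 9.54e-05 from limma) and batch 19 by 1.15 (adjusted p = 0.00208), and the latter was 0.99 without central library 21 of batch 1. Because Nkg7 is a gene of T and NK cells, their markers were examined. Of 12 markers 3 were in the table, and the sum of Klrk1, Gzmb and Ccl5 was 2.92 to 6.36 CPM in GMPs, 0.82 to 4.47 CPM in batch 1, 1.01 to 3.15 CPM in batch 3 and 0.144 to 0.587 CPM in batch 19. None of the 3 was counted as changed over the AML mean, and Gzmb was at 0 in all AML libraries. In batch 19, 1 of the 3 fell against GMPs, where 16.3% of all genes fell. Klrk1, which alone of the 3 was tested between batches, was higher in batch 1 than in batch 19 by 1.11 (adjusted p = 0.00140 from limma). Its difference between batches 1 and 3 was 0.21 (adjusted p = 0.516 from limma). Their part in the Nkg7 levels was not tested.

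Hp was the only one of the 7 genes that was higher in AML cells than in GMPs. GMPs held 101 to 306 CPM (median 167). Batch 1 held 341 to 950 CPM (median 590), batch 3 held 534 to 575 CPM (median 546) and batch 19 held 441 to 660 CPM (median 506), all above the highest GMP library. The log2 fold change was 1.60 in batch 1 (standard error 0.21, adjusted p = 4.04e-07 from limma), 1.57 in batch 3 (adjusted p = 4.33e-07) and 1.50 in batch 19 (adjusted p = 8.01e-07). The batches differed from each other by 0.10 or less on the log2 scale, with 95% intervals between -0.39 and 0.53. Batch 3 had the least spread, with a coefficient of variation of 3.16%, against 38.3% in batch 1.

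A gene was counted as changed at a Benjamini-Hochberg adjusted p under 0.05 from limma over all genes tested and, except between regions, at an absolute log2 fold change of at least 1. Over the mean of the 6 AML groups 5 of the 7 genes were changed against GMPs, Mpo, Ms4a3, Nkg7 and Calr lower and Hp higher, where 30.6% of all 5160 genes tested were changed. In batch 1 all 7 were changed, against 27.1% of all genes. In batches 3 and 19 the same 5 genes were changed as in the mean, against 37.8% and 40.1% of all genes. The median log2 fold change of the 7 genes over the AML mean was -1.10, and that of all genes tested was 0.33, or 0.23 with TMM and 0.18 with quantile scaling. The calls of all genes over the AML mean split into 939 higher and 641 lower, or 715 and 859 with quantile scaling. Between batches 1 and 3, 4 of 7 changed (15.4% of 4820 genes), between batches 1 and 19, 5 of 7 (22.3%), and between batches 3 and 19 Ms4a3 alone (12.7%). All genes of the table had an FDR under 0.05 in an unnamed contrast of the authors, so these shares describe preselected genes. In these bulk samples fewer cells of a type and less RNA per cell cannot be told apart.

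**Figure D3:**
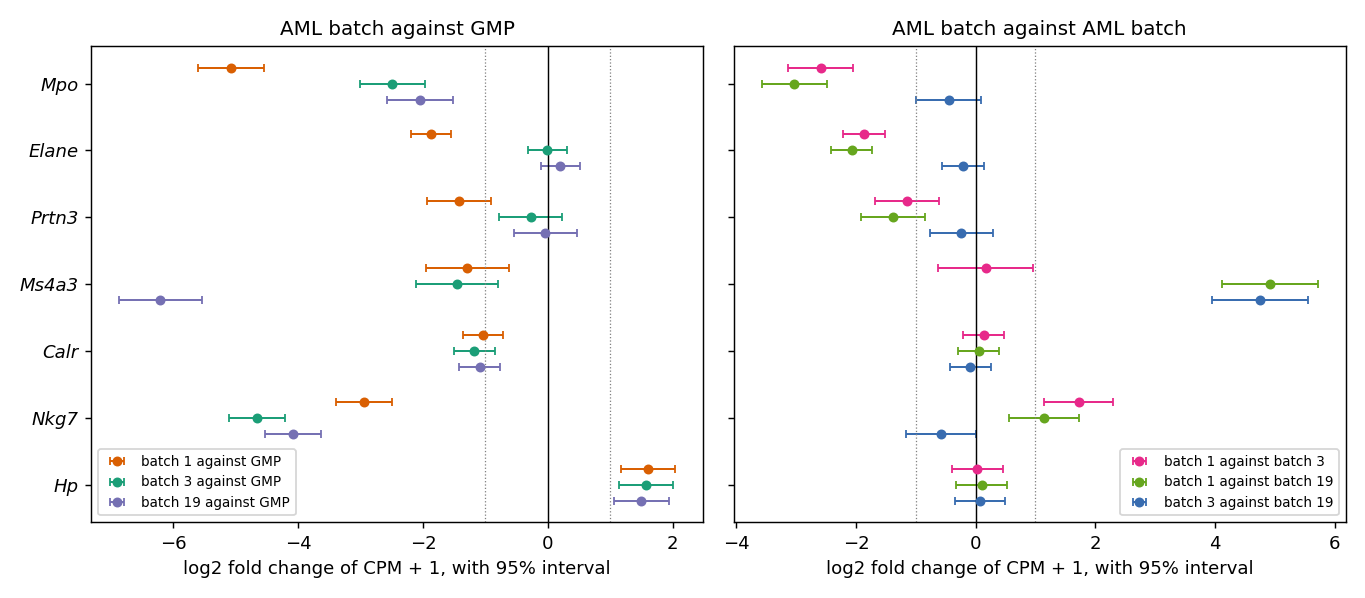
Log2 fold change of CPM + 1 with its 95% interval from limma for the 7 genes, each AML batch against GMPs (left) and AML batches against each other (right), dotted lines at 1 and -1. Calr and Hp shifted by like amounts in each batch, from -1.18 to -1.04 and from 1.50 to 1.60, whereas Mpo was lowest in batch 1 and Ms4a3 in batch 19.

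In order of mean CPM, Mpo ran from GMPs through batch 19 and batch 3 to batch 1. GMPs and batch 19, and batch 3 and batch 1, did not overlap, whereas batches 19 and 3 did. Between batches 3 and 19 limma gave an adjusted p of 0.218 for a log2 change of -0.45 (95% interval -0.99 to 0.10). An exact permutation test of Mpo alone gave an unadjusted p of 0.0173, and 4 libraries of batch 3 lay below all of batch 19. For Ms4a3 the order was GMPs, batch 1, batch 3 and batch 19, with a gap only before batch 19. For Elane the order was batch 19, GMPs with batch 3, and batch 1, with a gap only before batch 1.

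No difference between endosteal and central AML cells passed the test in these genes. That test left any pairing by mouse out of account. No gene in the table passed the test over batches (0% of 4820 genes, 223 of them at an unadjusted p under 0.05), and DESeq2 on whole reads called 1. Mpo averaged 1892 ± 1145 CPM in endosteal and 1847 ± 1265 CPM in central libraries (SD, n = 9 each, with all 3 batches), a log2 change of 0.13 at equal batch (95% interval -0.31 to 0.57, adjusted p = 0.911 from limma). The change was -0.11 for Ms4a3 (95% interval -0.76 to 0.54), 0.02 for Elane (-0.26 to 0.30) and -0.06 for Prtn3 (-0.49 to 0.38). For Calr it was 0.08 (-0.20 to 0.36), for Nkg7 0.01 (-0.46 to 0.49) and for Hp 0.21 (-0.13 to 0.56).

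Within batches no member passed either, against 0% of genes in batch 1, 0.0415% in batch 3 and 0% in batch 19, and the interaction of region and batch passed for 0% of genes (289 genes at an unadjusted p under 0.05). In batch 3 the Nkg7 values of endosteal cells (8.37, 10.2 and 8.60 CPM) lay above those of central cells (6.54, 5.67 and 4.43 CPM), with a log2 change of 0.63 (adjusted p = 0.776 from limma). In batch 19 the endosteal range of 7.78 to 13.8 CPM overlapped the central range of 6.48 to 16 CPM. In batch 1 the endosteal Hp values of 681, 950 and 499 CPM overlapped the central values of 341, 737 and 400 CPM (log2 change 0.56, adjusted p = 0.382).

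Genes that act on the same proteins were taken from lists that were drawn up with earlier results of these data known. Of 13 genes for the sorting, processing and inhibition of granule proteins 5 were in the table, and 1 rose and 1 fell over the AML mean, where 30.6% of all genes were called. Cd63, a membrane protein of primary granules, averaged 461 ± 150 CPM in the 9 GMP libraries and 1356 ± 621 CPM in the 18 AML libraries (SD) and rose by a log2 change of 1.43 (adjusted p = 2.06e-05 from limma). Its change was 2.23 in batch 19 and 1.32 in batch 3 but 0.74 in batch 1 (adjusted p = 0.0519), and batch 1 was below batch 19 by -1.49 (adjusted p = 0.00397). Cst7, an inhibitor of lysosomal cysteine proteases, fell from 273 ± 46.2 CPM to 98.0 ± 29.2 CPM (-1.52, adjusted p = 3.93e-09). Prss57, another granule serine protease, 83514 bp from Prtn3 in the annotation, had values of -0.59 in batch 1, -1.59 in batch 3 and 0.28 in batch 19. Its lowest batch was thus batch 3 (60.7 ± 15 CPM, SD, n = 6), not batch 1 (123 ± 32.1 CPM), and batch 3 was below batch 19 by -1.87 (adjusted p = 1.78e-07 from limma). Serpinb1a, an inhibitor of neutrophil serine proteases, rose in batch 1 (1.28, adjusted p = 1.15e-05), which exceeded batch 19 by 1.34 (adjusted p = 4.73e-05). The difference of batch 1 from batch 3, 0.90, was short of 1. Cfd, another serine protease gene 2637 bp from Elane and named after its values were seen, held 0.654 ± 0.255 CPM in GMPs (SD, n = 9) and 3.58 ± 1.07 CPM in batch 19 (SD, n = 6).

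Of 15 genes of ER folding 7 were measured, with a median log2 change of -0.70 against 0.33 for all genes. Pdia4, a disulfide isomerase, fell (-2.28, adjusted p = 6.34e-07 from limma) and Ero1l, an oxidase that serves such isomerases, rose (1.17, adjusted p = 1.63e-10). The value of Ero1l in batch 19, 0.87, was short of 1. These are 2 of the 7 genes, where 30.6% of all genes were called. Hspa5, the chaperone BiP, averaged 3155 ± 847 CPM in GMPs (SD, n = 9) and 1772 ± 351 CPM in AML cells (SD, n = 18), and Canx, which encodes calnexin, averaged 558 ± 80.8 and 343 ± 40.3 CPM. Their changes of -0.82 and -0.70 were short of 1. Of 9 enzymes of heme synthesis 3 were measured and none was counted as changed over the AML mean, with Alad at -0.85, Alas1 at -0.06 and Fech at 0.61. The eosinophil peroxidase gene Epx, a relative of Mpo, fell from 9.81 ± 6.73 CPM to 0.226 ± 0.353 CPM (-2.97, adjusted p = 1.40e-12).

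**Figure D4:**
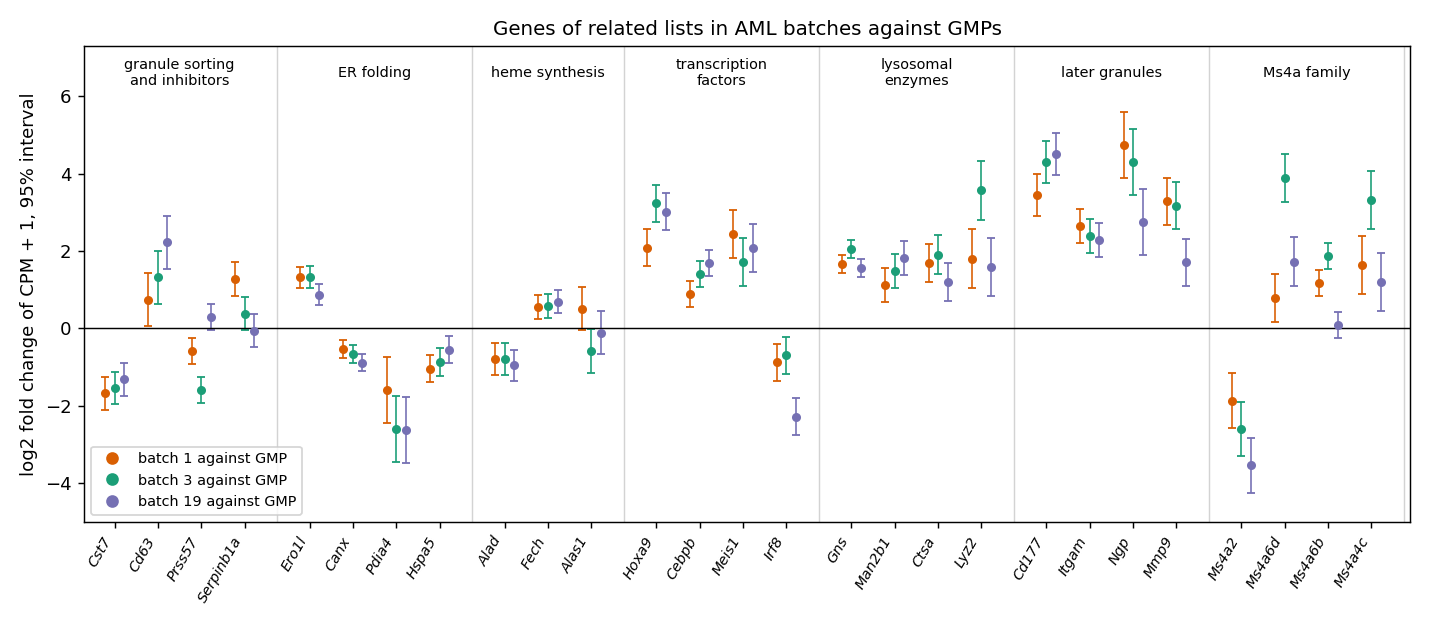
Log2 fold change of CPM + 1 with its 95% interval from limma in batch 1, 3 and 19 against GMPs, for up to 4 genes of 7 related lists with the smallest p over the AML mean. The 4 genes of later granules were higher in each batch, Cst7 and Pdia4 were lower in each batch, and Prss57 ranged from -1.59 in batch 3 to 0.28 in batch 19.

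Genes of later granules were higher in AML cells. Of 18 genes of later granules and maturing neutrophils 15 were in the table and 14 were tested, of which 12 rose and 0 fell over the AML mean, where 18.2% of all genes rose. In batches 1, 3 and 19 it was 13, 12 and 11 of 14 that rose, beside 16.5%, 22.2% and 23.8% of all genes. In batch 19, 1 of the 14 fell, beside 16.3% of all genes. Cd177, a neutrophil surface antigen, rose from 0.715 ± 0.438 to 29.8 ± 11.6 CPM and Ngp, a secondary granule protein, from 5.37 ± 3.98 to 102 ± 80.0 CPM (SD, n = 9 and 18). Of 10 measured lysosomal enzymes 7 rose and 0 fell, beside the same 18.2% of all genes, and Lyz2, lysozyme of myeloid cells, had a log2 change of 3.57 in batch 3, above the 2.32 of the AML mean. The median change was 2.40 for the later granule list and 1.25 for the lysosomal list, against 0.33 for all genes.

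Of 15 listed transcription factors, some of which MLL fusion proteins activate, 7 were measured. Of the 7, 3 rose and 2 fell over the AML mean, where 18.2% of all genes rose and 12.4% fell. Against GMPs 0 of the 7 fell in batch 1, 1 in batch 3 and 2 in batch 19. These counts lie near the 10.6%, 15.6% and 16.3% of all genes that fell in those batches. Hoxa9 and Meis1, which MLL fusion proteins activate, and Cebpb rose (2.78, 2.08 and 1.33, adjusted p of at most 1.45e-08 from limma), although Cebpb in batch 1, at 0.89, was short of 1. Irf8, a factor of the monocyte branch, fell (-1.28, adjusted p = 5.61e-07 from limma) and was lowest in batch 19, the batch with the least Ms4a3, at 67.1 ± 9.83 CPM (SD, n = 6) against 202 ± 109 CPM in batch 1 and 210 ± 65.9 CPM in batch 3. Against GMPs Irf8 passed the thresholds in batch 19 (-2.28) and not in batch 1 (-0.87) or batch 3 (-0.69). Batches 1 and 3 exceeded batch 19 in Irf8 by 1.41 (adjusted p = 0.000514 from limma) and 1.59 (adjusted p = 0.000295). Klf4 and Cebpe were named after their values were seen. Klf4, another factor of the monocyte branch, fell over the AML mean (-1.62, adjusted p = 4.78e-05), with -2.54 in batch 3 and -1.73 in batch 19 but -0.59 in batch 1 (adjusted p = 0.199). Cebpe, a factor of the later granule stage, rose in batch 1 (1.58, adjusted p = 1.42e-05), and batch 1 exceeded batch 3 by 1.49 (adjusted p = 0.00146) and batch 19 by 1.45 (adjusted p = 0.00119).

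Of 15 genes of the Ms4a family, the relatives of Ms4a3, 5 were in the table and 4 were tested. Over the AML mean and in batch 3, 3 rose and 1 fell, and in batches 1 and 19, 2 rose and 1 fell. Of all genes 18.2% rose over the mean, and 16.5%, 22.2% and 23.8% in batches 1, 3 and 19. Those that fell were 12.4% over the mean and 10.6%, 15.6% and 16.3% in these batches. Ms4a6d had 1.83 ± 1.06 CPM in the 9 GMP libraries and 38.7 ± 8.67 CPM in the 6 libraries of batch 3 (SD), where it rose by a log2 change of 3.89, and Ms4a4c by 3.31 in the same batch. Ms4a2, the beta chain of the IgE receptor of mast cells and basophils, fell from 14.3 ± 7.97 CPM in GMPs to 0.117 ± 0.102 CPM in batch 19. All 8 tested markers of basophils, eosinophils and mast cells, Ms4a2 and Epx among them, fell over the AML mean, where 12.4% of all genes fell. In batches 1, 3 and 19 it was 6, 7 and 7 of the 8 that fell, beside 10.6%, 15.6% and 16.3% of all genes. The summed level of the 8 markers was 318 to 876 CPM in GMPs, 145 to 265 CPM in batch 1, 77.6 to 127 CPM in batch 3 and 235 to 286 CPM in batch 19. Single genes differed from this sum. Of 6 tested between batches, 5 were called higher in batch 1 than in batch 19 and 1 lower, beside 11% and 11.3% of all genes. The 5 were Cpa3 (4.58), Prg2 (3.91), Prss34 (2.26), Ms4a2 (1.67) and Mcpt8 (1.47), and the other was Hdc (-2.44). Fcer1a, the alpha chain of the IgE receptor, was at 0 in all libraries of batches 1 and 3. The part of these markers in the Ms4a3 and Mpo levels was not tested.

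The genes whose CPM ranked most like Mpo over the 27 libraries were Cbx6, Wbp5, Cd27, Trf and Bhlhb9, with Spearman rho from 0.946 to 0.913 among 2467 genes with a mean of at least 10 CPM. Cd27, a receptor of early progenitors, held 44 ± 9.02 CPM in GMPs (SD, n = 9) and 0.665 ± 0.631 CPM in AML cells (SD, n = 18). Over the 18 AML libraries alone, Myo18b and Scnn1a came first with rho of 0.930, and Elane stood in rank 8 of 2487 with 0.893. Prtn3 had 0.798, whereas Ms4a3 had -0.534 and Nkg7 -0.461. For Ms4a3 the closest genes over 27 libraries were Prg2, the eosinophil major basic protein, Cd24a, Ppm1a and Stard10, with rho from 0.879 to 0.869, and a row whose symbol the file gives as a date. Among AML libraries they were Plekha2, Anxa2, Tmem119, Chmp4b and Lrp8, with rho from 0.932 to 0.854. These correlations describe libraries that fall into 3 or 4 groups and rest mainly on the differences between those groups.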

How the data were processed

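RNA of 18 AML and 9 GMP samples was read at transcript 3′ ends only (QuantSeq), so that a value does not depend on transcript length. The CPM values were made by the authors, using Cutadapt 1.9 for trimming, HISAT2 for mapping to mm10 and featureCounts for gene counts, divided by the total of the library. The deposited table also holds 9 columns of the authors' own comparisons (log2 fold changes, mean log2 expression and an FDR, an adjusted p-value), which were not used. Every gene deposited has an FDR under 0.05.

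The genes and all lists were chosen with earlier results of these data known. CPM values were tested as log2(CPM + 1) in limma 3.58.1 under R 4.3.3, with a mean-variance trend and two-sided p-values, for the genes with 1 CPM or more in 3 or more libraries. AML groups were compared with GMPs in 1 fit of 27 libraries, batches at equal region and regions at equal batch in fits of the 18 AML libraries, with p-values adjusted over all genes tested. Adding 1 shrinks the fold changes of genes at low CPM. Whole reads, recovered from the CPM of 1 read within a tolerance of 0.1 of a read in 24 libraries (17 AML and 7 GMP, in each of which 100% of the low values examined came out whole), were tested with edgeR 4.0.16 and DESeq2 1.42.0 as alternatives. Other alternatives were pseudocounts of 0.5 and 3, a minimum of 5 CPM or none, TMM and quantile scaling, single regions, and leaving out each library or control set. Leaving out libraries 3 and 18 together was chosen after seeing the data. Besides the 7 genes, up to 4 genes per list with the smallest p over the AML mean are named, with all measured genes of short lists, and the 5 genes most like Mpo and Ms4a3 by Spearman correlation. The fits were tested on simulated data.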

Additional observations from a re-analysis of the deposited data

Results flagged for a closer look

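Among the 28 combinations of a gene with GMPs or an AML batch, 1 library lay far from the others of its group by Dixon's test. GMP library 25 held 24674 CPM of Mpo, against 16178 CPM in the next highest. Chance marks about 1 in 20 such groups.

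The change against GMPs differed between batches in 10 cases, by limma's test of the difference between the batches. Of all genes tested, 15.4% were called between batches 1 and 3, 22.3% between 1 and 19 and 12.7% between 3 and 19. Between batches 1 and 3 the log2 difference was -2.59 for Mpo, -1.86 for Elane, -1.15 for Prtn3 and 1.72 for Nkg7. Between batches 1 and 19 it was -3.03 for Mpo, -2.07 for Elane, -1.38 for Prtn3, 1.15 for Nkg7 and 4.92 for Ms4a3. Between batches 3 and 19 it was 4.75 for Ms4a3. The 6 libraries of each batch showed the direction in all cases, apart from Nkg7 between batches 1 and 19, where 5 of the 6 libraries of batch 1 exceeded all of batch 19. The share of all genes without overlap between batches was not counted.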

How the results depend on the processing

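Mpo and Ms4a3 stayed changed, in the same direction, in each batch against GMPs and wherever they were changed between batches, under every alternative and with each library left out. Against the AML mean, 5 of the 7 genes were changed under each of 41 alternatives. Between 6 and 7 were changed in batch 1, between 4 and 5 in batch 3 and 5 in batch 19. No paired analysis was possible because the labels do not say which endosteal and central libraries share a mouse. In either region alone, where a mouse can enter only once, Mpo, Ms4a3, Elane, Nkg7 and Hp kept every call, and Prtn3 all but that of batches 1 against 3. Calr against GMPs was short of 1 in batch 1 in central libraries (-0.996) and in batch 3 in endosteal libraries (-0.98).

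With a pseudocount of 3 the counts of changed genes fell to 894 for the AML mean, 817, 1177 and 1246 for batches 1, 3 and 19 against GMPs, and 389, 642 and 339 for batches 1 against 3, 1 against 19 and 3 against 19. A larger pseudocount shrinks fold changes of low genes by construction. On whole reads edgeR called 2286 genes and DESeq2 2321 for the AML mean. For batches 1 against 3 the count was 398 in endosteal libraries alone, 1123 with edgeR and 1149 with DESeq2, and for batches 3 against 19 it was 938 and 969. For endosteal against central cells DESeq2 called 1 gene over batches. In batch 1 it called 27, no filter gave 6 and leaving out 1 library 0 to 151 (151 without endosteal library 20). In batch 3 no filter gave 1, TMM 1, edgeR 0, DESeq2 9, leaving out libraries 3 and 18 5, and leaving out 1 library 0 to 16 (16 without library 18). The cause was not tested.

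The signs that turned belonged to differences that were not counted as changed under any setting. Prtn3 in batch 19 against GMPs had an adjusted p under 0.05 in an alternative, at a log2 change short of 1. So did Prtn3 in batch 3, whose change ranged from -0.53 to -0.15 and did not turn. Elane in batch 3 against GMPs was 0.012 without set A, 0.068 without set B, 0.066 in endosteal libraries, 0.023 without libraries 3 and 18, and -0.097 to 0.047 with 1 library left out. Prtn3 in batch 19 was 0.12 with quantile scaling, 0.086 and 0.052 without sets A and B, 0.000254 in central libraries, and -0.19 to 0.042 with 1 library left out. Between batches 1 and 3, Calr was -0.11 in endosteal libraries, Hp was -0.24 in central libraries and -0.11 without libraries 3 and 18, and leaving out 1 library gave -0.11 to 0.16 for Hp and -0.062 to 0.40 for Ms4a3. Between batches 1 and 19, Hp was -0.14 in central libraries, -0.033 without libraries 3 and 18 and -0.033 to 0.24 with 1 library left out, and Calr was -0.010 to 0.11. Between batches 3 and 19, Calr was 0.16 in endosteal libraries and Hp -0.0035 with DESeq2. Between regions, leaving out libraries 3 and 18 gave -0.054 for Mpo, 0.11 for Prtn3 and -0.022 for Nkg7. Elane was -0.012 with TMM and -0.015 with both edgeR and DESeq2, Ms4a3 was 0.017 with DESeq2, and Nkg7 was -0.017 with a pseudocount of 3, -0.015 with TMM, -0.037 with quantile scaling, -0.078 with edgeR and -0.072 with DESeq2. Leaving out 1 library gave region differences of -0.28 to 0.044 for Ms4a3, -0.037 to 0.073 for Elane, -0.15 to 0.12 for Prtn3 and -0.086 to 0.12 for Nkg7. Depth limits Ms4a3 in batch 19, where 2 libraries held 2 reads each.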
